A study of Mus musculus with 9 samples.

Results

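Immunoglobulin variable (V) segments were followed in the jejunum of mice after total abdominal irradiation (TAI) with or without intravenous immunoglobulin (IVIg). Of 31685 genes in the table of FPKM values (sequenced fragments scaled by gene length and library size), 241 carried a mouse symbol beginning Ighv, Igkv or Iglv, and 149 of these had a mean of at least 1 FPKM over the 9 mice. These 149 segments, chosen by their measured mean level, comprised 76 of 121 listed heavy chain segments (Ighv), 70 of 117 kappa segments (Igkv) and 3 of 3 lambda segments (Iglv). All mice were wild-type C57BL/6J males, 6 to 8 weeks old by the study's methods, in 3 groups of 3: untreated control mice, mice given 12 Gy of abdominal X-rays at 75 cGy/min (TAI group, given PBS by the study's methods), and mice given the same irradiation plus 500 mg/kg of IVIg, a human IgG preparation from pooled plasma (TAI/IVIg group). IVIg was given into a vein within an hour of irradiation, with further doses scheduled at 3-day intervals. The rest of the body was shielded with lead, so lymphoid organs outside the abdomen were not in the field, and the IVIg protein is not measured by RNA sequencing. The jejunum was taken on day 3, and all libraries carried the same batch label. No group received IVIg without irradiation, so the effect of IVIg alone was not measured.

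A B cell builds its antibody genes by joining 1 V segment to short D and J segments (heavy chain) or to a J segment (light chain) and then to a constant gene, and each clone keeps its own choice. Plasma cells of the intestinal lamina propria transcribe these joined genes at very high levels, chiefly with Igha, the IgA heavy chain gene, and Igkc, the kappa constant gene, and Jchain links IgA into dimers. Naive B cells of lymphoid follicles carry many different V segments at lower levels, with Ighm and Ighd, the IgM and IgD heavy chain genes. Reads of V segments therefore record both how much antibody mRNA a sample holds and how evenly it is spread over segments.

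The coding V exons of 6 segments are shown because the results below turn on them: Ighv1-26, Igkv1-117 and Iglv1 had the highest mean of their chains, Iglv2 is the nearest relative of Iglv1, and Ighv3-6 and Ighv1-5 had the smallest p in the comparisons of groups. Each line gives the last 300 bases of the coding second exon, 5′ to 3′, from GENCODE M21 transcripts on GRCm38. The exon lies on the plus strand for Igkv1-117 and on the minus strand for the others. Capitals mark bases that differ from the most similar other segment of the same chain.
Ighv1-26: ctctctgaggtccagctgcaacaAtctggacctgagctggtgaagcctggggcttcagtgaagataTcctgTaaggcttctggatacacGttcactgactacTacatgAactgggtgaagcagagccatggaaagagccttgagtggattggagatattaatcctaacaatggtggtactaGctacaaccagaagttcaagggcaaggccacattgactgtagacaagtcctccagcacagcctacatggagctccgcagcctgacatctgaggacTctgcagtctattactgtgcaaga
Igkv1-117: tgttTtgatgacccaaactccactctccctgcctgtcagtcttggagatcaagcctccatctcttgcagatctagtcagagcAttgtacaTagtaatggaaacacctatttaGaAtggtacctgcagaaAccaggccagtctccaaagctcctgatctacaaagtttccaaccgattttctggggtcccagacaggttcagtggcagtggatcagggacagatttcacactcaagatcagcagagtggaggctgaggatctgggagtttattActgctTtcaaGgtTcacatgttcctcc
Iglv1: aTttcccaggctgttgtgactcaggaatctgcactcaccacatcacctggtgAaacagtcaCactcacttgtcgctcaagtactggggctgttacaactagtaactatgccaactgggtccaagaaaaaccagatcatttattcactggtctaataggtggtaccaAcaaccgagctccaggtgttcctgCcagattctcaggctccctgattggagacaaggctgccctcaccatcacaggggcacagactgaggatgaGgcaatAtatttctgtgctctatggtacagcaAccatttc
Iglv2: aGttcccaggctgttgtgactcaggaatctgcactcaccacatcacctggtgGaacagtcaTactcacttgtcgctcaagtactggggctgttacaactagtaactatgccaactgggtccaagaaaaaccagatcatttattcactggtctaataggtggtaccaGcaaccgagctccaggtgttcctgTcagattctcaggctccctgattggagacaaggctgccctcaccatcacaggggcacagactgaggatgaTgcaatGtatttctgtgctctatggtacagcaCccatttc
Ighv3-6: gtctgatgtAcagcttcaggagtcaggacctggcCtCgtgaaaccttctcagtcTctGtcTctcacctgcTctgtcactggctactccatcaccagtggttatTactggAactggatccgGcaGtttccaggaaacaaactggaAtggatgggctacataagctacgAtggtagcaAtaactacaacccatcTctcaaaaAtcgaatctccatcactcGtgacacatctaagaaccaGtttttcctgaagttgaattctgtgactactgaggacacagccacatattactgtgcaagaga
Ighv1-5: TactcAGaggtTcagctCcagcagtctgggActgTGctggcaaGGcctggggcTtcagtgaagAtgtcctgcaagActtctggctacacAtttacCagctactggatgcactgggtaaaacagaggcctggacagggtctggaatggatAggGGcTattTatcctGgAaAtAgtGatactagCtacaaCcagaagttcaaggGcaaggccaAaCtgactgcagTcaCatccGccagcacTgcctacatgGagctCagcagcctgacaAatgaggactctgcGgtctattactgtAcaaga
Ighv1-26 lies at chr12:114788372-114788671, Igkv1-117 at chr6:68121528-68121827, Iglv1 at chr16:19085017-19085316, Iglv2 at chr16:19260401-19260700, Ighv3-6 at chr12:114288152-114288451 and Ighv1-5 at chr12:114513330-114513629. Ighv1-26 differed from Ighv1-18 at 8 of these bases, Igkv1-117 from Igkv1-110 at 10, and Iglv1 from Iglv2 at 8. Ighv3-6, with 18 differences from Ighv3-1, and Ighv1-5, with 39 from Ighv1-7, were more distant from their relatives. Over whole second exons the median identity of a member to its nearest segment was 95.4%, 14 members were at least 98% identical to another segment, and Ighv1-62-2 was identical to Ighv1-71. Of the 149 members, 17 shared more than 50% of their 50-base windows with another V transcript and 23 shared none, so values of close relatives such as Igkv5-43 and Igkv5-45 (99.0% identical) are uncertain one by one. Rearranged and mutated reads can also fail to align to a germline segment, and this loss was not measured.

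Library totals worked out from the FPKM steps ran from 16284531 to 18244739 reads, so depth differed little between mice, and 1 read in a member of the median length of 361 bases was worth 0.152 to 0.170 FPKM. Libraries stood apart in ways the labels did not give. The summed FPKM of 19 mature B cell genes was 89.3, 13.6 and 622 in the control mice, 10.8, 14.6 and 116 in the TAI mice, and 8.94, 129 and 7.71 in the TAI/IVIg mice (replicates 1 to 3). Genes of lymphoid follicles followed them, at 71.8 to 279 FPKM in control 1, control 3, TAI 3 and TAI/IVIg 2 and 10.5 to 36.5 FPKM in the other mice. Control 1, control 3, TAI 3 and TAI/IVIg 2, the mice with a sum of at least 50 FPKM, are called the 4 mice of high B cell genes here. Ms4a1, a B cell surface gene, was 4.51 to 29.9 FPKM in them and at most 0.139 in the other mice, and Fcer2a was at 0 in TAI 1, TAI 2 and TAI/IVIg 3. Smooth muscle genes summed to 133 FPKM in TAI/IVIg 3 against 341 to 841 in the other mice, so samples labelled epithelial held smooth muscle RNA in varying amounts. In bulk tissue, fewer cells of a type and less RNA per cell cannot be told apart.

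The total signal of the V segments was lowest in the TAI/IVIg group. The 149 members summed to 1957, 2796 and 2647 FPKM in the control mice, 2045, 2731 and 1253 FPKM in the TAI mice, and 966, 1767 and 1207 FPKM in the TAI/IVIg mice. The TAI/IVIg values lay below every control value and overlapped those of TAI, where TAI 3 stood far below its companions. On the log2 scale the TAI/IVIg mean was 10.3 ± 0.441 (SD, n = 3) against 11.3 ± 0.277 in control mice, a difference of -0.94 or a ratio of 0.522. A two-sided exact permutation test gave p = 0.10, the smallest p that 3 mice against 3 allow, and adjustment over the 15 tests of this kind gave 0.96 (permutation). TAI differed from control by -0.35 (exact permutation p = 0.60) and TAI/IVIg from TAI by -0.59 (exact permutation p = 0.20). Leaving out 1 mouse at a time moved these from -0.61 (without TAI 2) to -0.04 (without TAI 3) and from -0.89 (without TAI 3) to -0.33 (without TAI 2). With the library medians set equal, the TAI/IVIg difference from control was -0.45 and the groups overlapped (exact permutation p = 0.20), and TAI against control came to -0.06. The median log2 fold change of all 13056 genes tested was itself -0.23 for TAI and -0.39 for TAI/IVIg against control. Without the 4 mice of high B cell genes, an alternative chosen after the data were seen that leaves 1 control mouse and 2 mice in each irradiated group, the log2 difference was -1.37 for TAI/IVIg and -0.24 for TAI against control, with no test.

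**Figure D1:**
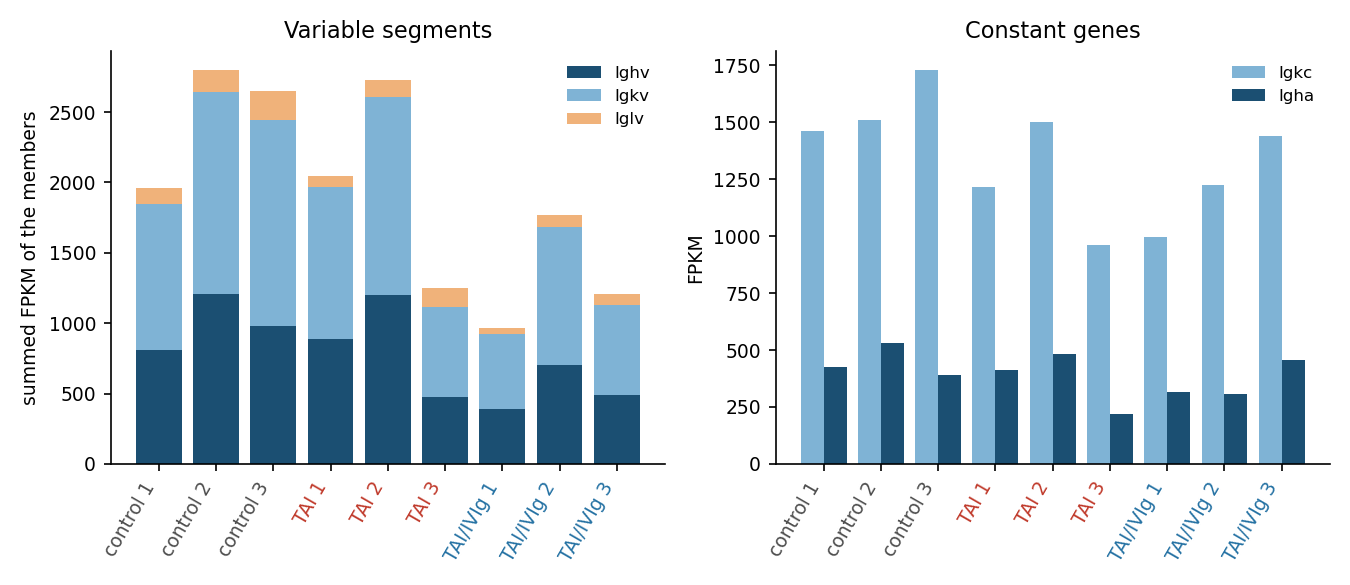
Summed FPKM of the 149 variable segments, stacked by chain (left), and FPKM of the constant genes Igkc and Igha (right), 1 bar or pair of bars per mouse, with mouse names coloured by group. The V total was 966 to 1767 FPKM in the TAI/IVIg mice against 1957 to 2796 in the control mice, whereas Igha in TAI/IVIg 3 (458 FPKM) was within the control range.

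Heavy and kappa segments kept similar proportions in all mice, and the lambda share varied more. Ighv made up 37.1% to 43.9% of the total in all mice, Igkv 51.0% to 55.4% and Iglv 3.76% to 11.1%, the highest lambda share being that of TAI 3.  Summed Ighv was 809, 1205 and 981 FPKM in the control mice, 886, 1200 and 474 in the TAI mice, and 392, 701 and 493 in the TAI/IVIg mice. Summed Igkv was 1037, 1440 and 1461, then 1082, 1409 and 639, then 529, 979 and 638 FPKM in the same order. For Iglv the values were 112, 151 and 205, then 76.9, 122 and 139, then 45.5, 86.9 and 76.1 FPKM. In all 3 chains every TAI/IVIg mouse lay below every control mouse (exact permutation p = 0.10 each, 0.51 adjusted over 24 such tests that were added to the plan).

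Constant genes did not follow the V total in every mouse. Igkc was 1461, 1509 and 1727 FPKM in the control mice, 1216, 1500 and 960 in the TAI mice, and 995, 1226 and 1438 in the TAI/IVIg mice. Igha was 427, 531 and 390 FPKM, then 411, 481 and 221, then 314, 308 and 458 FPKM in the same order, so TAI/IVIg 3 had the third highest Igha value of the 9 mice and the second lowest V total. The ratio of summed Igkv to Igkc was 0.71 to 0.95 in the control mice, 0.67 to 0.94 in the TAI mice, and 0.53, 0.80 and 0.44 in the TAI/IVIg mice. The TAI/IVIg ratio was 0.690 times the control ratio (exact permutation p = 0.20) and overlapped it through TAI/IVIg 2. Igkc itself was 0.772 times the control level in TAI/IVIg mice, without overlap (exact permutation p = 0.10), and Igha 0.794 times, with overlap (exact permutation p = 0.30). The ratio of summed Ighv to Igha behaved alike, at 1.89 to 2.51 in control, 2.14 to 2.50 in TAI, and 1.25, 2.27 and 1.08 in TAI/IVIg mice (TAI/IVIg against control exact permutation p = 0.30). The ratio of Ighv to all heavy constant genes summed did not: it was 1.52, 2.22 and 0.98 in control and 1.22, 1.36 and 1.06 in TAI/IVIg mice. TAI/IVIg was 0.810 times control there (exact permutation p = 0.50). Control 3, where Ighm was 325 FPKM, had the lowest such ratio of all mice. None of the 12 tested genes of the constant list, Igha, Ighm, Ighd, Ighg1, Ighg2b, Ighg2c, Ighg3, Igkc, Iglc1, Iglc2, Iglc3 and Jchain, passed limma's adjusted p of 0.05 in any comparison, and under quantile normalization 1 was lower in each irradiated group against control. Ighe and Iglc4 did not pass the filter on low values, at no more than 0.109 and 0.368 FPKM.

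The level was concentrated in few segments. The 10 members of highest mean held 39.8% of the summed mean and the first pair, Ighv1-26 and Igkv1-117, held 17.3%. By contrast 54 members of mean below 5 FPKM were needed for the last 7.44%. All 149 were annotated as functional V genes of 2 exons, and 77 reached 1 FPKM in every mouse. The largest family was Ighv1, with 38 members and 23.9% of the summed mean, followed by Igkv1 (7 members, 13.3%) and Igkv4 (16 members, 6.38%). Just inside the limit of mean level were Igkv14-130 (1.02 FPKM) and Ighv1-63 (1.12 FPKM), and just outside it were Igkv4-70 (0.967 FPKM) and Ighv1-61 (0.907 FPKM).

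Ighv1-26 and Igkv1-117 were extreme in 1 control mouse. Ighv1-26, a heavy chain segment, measured 95.6, 517 and 103 FPKM in the control mice, 242, 247 and 72.3 in the TAI mice, and 85.9, 96.1 and 55.2 in the TAI/IVIg mice. Igkv1-117, a kappa segment, measured 101, 651 and 105 FPKM, then 225, 151 and 56.8, then 46.9, 105 and 47.2 FPKM in the same order. Control 2 was thus highest for both, and TAI 1 and TAI 2 came next in both. In control 2 Ighv1-26 alone took 42.9% of the Ighv signal (3206 reads) and Igkv1-117 took 45.2% of the Igkv signal (4646 reads). The shares were 27.3% and 20.8% in TAI 1, and 10.5% to 21.9% and 7.2% to 10.7% in the other mice. The ratio of the kappa to the heavy segment stayed between 0.55 and 1.26 while their levels ran from 55.2 to 517 FPKM (Ighv1-26) and from 46.9 to 651 FPKM (Igkv1-117). The level of this pair is a description of 9 mice, since it was singled out after its values were seen, and their groups overlapped widely: limma gave log2 fold changes of -0.08 ± 0.68 (SE) for Ighv1-26 and -0.61 ± 0.76 for Igkv1-117 in TAI against control (adjusted p = 0.936 and 0.557).

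The nearest relatives of these segments did not share the peak. Igkv1-110, which differs from Igkv1-117 at 10 bases of the stretch shown, was 32.9 FPKM in control 2 against 35.7 and 55.2 in the other control mice. Ighv1-18, the closest to Ighv1-26, was 13.9 FPKM in control 2 against 8.03 and 15.1. Taking both leading segments away left control 2 with 1628 FPKM, below control 1 (1761) and control 3 (2439), and close to TAI 1 (1578). The control-to-TAI/IVIg order survived, with 833, 1566 and 1104 FPKM left in the TAI/IVIg mice.

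**Figure D2:**
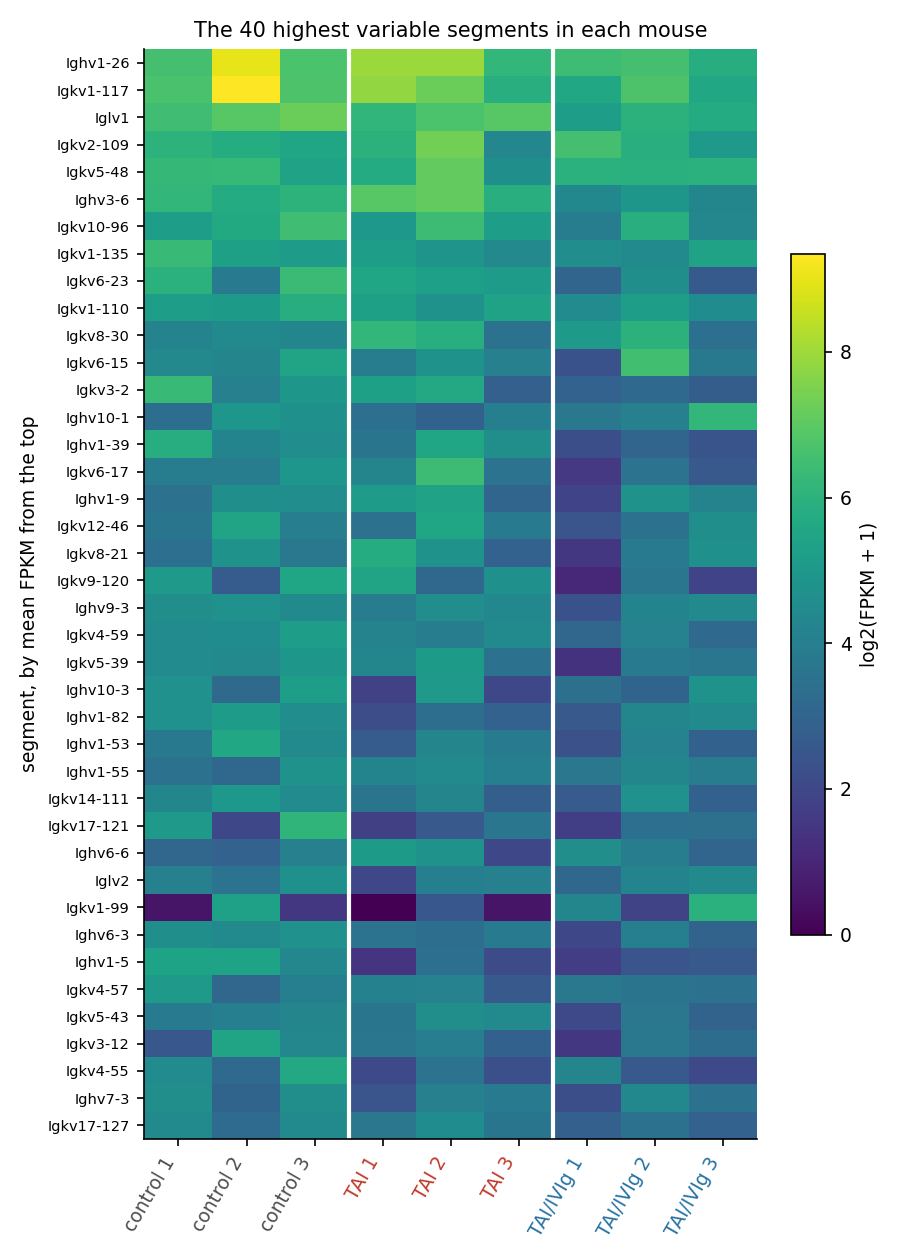
Levels, as log2(FPKM + 1), of the 40 members of highest mean (rows, from the top) in each of the 9 mice (columns, groups divided by white lines). Control 2 is brightest for Ighv1-26 and Igkv1-117 (517 and 651 FPKM), and Iglv1 stands out in every mouse, from 36.1 to 150 FPKM.

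Beyond this pair, mice led with different segments. Of the other 8 members among the 10 of highest mean, Igkv5-48 was nearly equal in the TAI/IVIg mice (61.0, 60.8 and 61.0 FPKM) and ran from 24.2 to 137 FPKM elsewhere. Igkv10-96 was highest in control 3 (89.3 FPKM) and TAI 2 (83.0 FPKM), with 14.2 to 57.5 in the others. Igkv1-135 was 79.6 FPKM in control 1 and at most 40.7 in the others, and Igkv6-23 ran from 5.33 FPKM in TAI/IVIg 3 to 81.6 in control 3. These kappa segments each had their own order of mice. Ighv1-26 was the highest Ighv member in 8 mice, and in TAI/IVIg 3 it was Ighv10-1, at 72.4 FPKM against 6.50 to 29.0 in the others. Igkv1-117 led the kappa segments in 6 mice, Igkv2-109 in TAI 2 (165 FPKM) and TAI/IVIg 1 (94.7 FPKM), and Igkv1-99 in TAI/IVIg 3. Igkv1-99 was the most uneven of these leaders, with 0.459, 39.6 and 1.84 FPKM in the control mice, 0, 4.74 and 0.437 in the TAI mice, and 18.6, 2.82 and 62.2 in the TAI/IVIg mice. Iglv1 was the highest lambda segment in every mouse, with 69.7% to 91.1% of the lambda signal. Igkv6-15 peaked in TAI/IVIg 2 at 90.9 FPKM, with 4.17 to 43.1 elsewhere, and Igkv3-2 in control 1 at 77.3 FPKM, with 5.68 to 49.4 elsewhere.

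In 11 members 1 mouse had at least 10 FPKM and at least 3 times the next highest mouse. Igkv4-53 in control 3 (68.1 FPKM, 5.8 times the next), Ighv13-2 in control 1 (34.0, 7.7 times), Igkv6-20 in TAI 1 (27.5, 6.0 times) and Ighv8-5 in control 2 (13.0, 5.6 times) were the steepest. These peaks fell in control 1 (2 members), control 2 (1), control 3 (4), TAI 1 (1) and TAI 2 (3), and no member peaked so in the other 4 mice. The residual SD between mice of a group had a median of 0.91 (log2) over the members, against 0.24 over all genes tested and 0.23 over other genes of like mean level. It was 0.33 over Igha, Igkc and Jchain, while Ighm (1.68 to 325 FPKM) and Ighd (0.0293 to 188 FPKM) varied far more between mice. A change of 1 segment between groups therefore had to be much larger than in other genes to pass the test.

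Among the 149 members, the number of segments did not differ between groups beyond the spread of mice. The members were chosen for their mean level in these same mice, and 140 to 149 of them had a read in each mouse. The choice therefore left the number at equal depth little room to differ. Members of at least 1 FPKM numbered 126, 128 and 146 in the control mice, 123, 135 and 133 in the TAI mice, and 103, 143 and 111 in the TAI/IVIg mice. The TAI/IVIg mean was 119 ± 21.2 (SD, n = 3) against 133 ± 11.0 in control mice, a difference of -14.3 segments (exact permutation p = 0.40, with -26.3 without TAI/IVIg 2 and -6.33 without TAI/IVIg 1), with both the lowest and the second highest count in the TAI/IVIg group. When the segment reads of each mouse were thinned in calculation to the 6418 reads of the shallowest, TAI/IVIg 1, the expected numbers were 145.2, 140.8 and 147.5, then 140.6, 144.9 and 145.9, then 142.0, 146.8 and 139.4. The difference between TAI/IVIg and control shrank to -1.77 segments (exact permutation p = 0.70).

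The share held by the 10 highest segments of a mouse was 39.3%, 59.2% and 31.5% in the control mice, 48.2%, 44.4% and 39.2% in the TAI mice, and 49.6%, 38.2% and 39.7% in the TAI/IVIg mice. Control mice thus held both extremes, and the group means of 43.3%, 43.9% and 42.5% were nearly equal (exact permutation p from 0.90 to 1.00 over the 3 comparisons). The effective number of segments, the inverse Simpson index that counts how many equally abundant segments would give the same concentration, was 46.6, 10.5 and 60.1 in the control mice. It was 25.3, 35.5 and 39.6 in the TAI mice and 28.4, 48.5 and 43.2 in the TAI/IVIg mice. Differences were -5.57 for TAI against control, 0.949 for TAI/IVIg against control and 6.52 for TAI/IVIg against TAI (exact permutation p = 0.80, 0.90 and 0.40). Without Ighv1-26 and Igkv1-117 the effective number of control 2 went from 10.5 to 48.1, next to 49.3 and 62.6 in the other control mice, so its low evenness rested on those 2 segments. The TAI/IVIg mice then had 29.8, 55.5 and 42.9, and the TAI mice 44.3, 43.2 and 40.6.

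**Figure D3:**
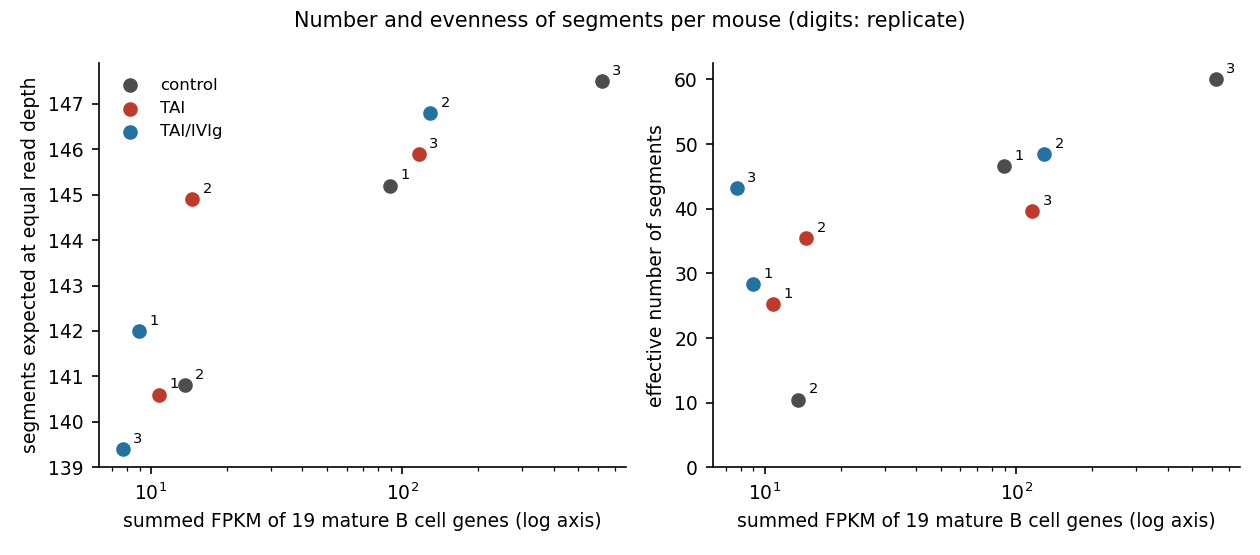
Expected number of segments after thinning to 6418 segment reads (left; the vertical axis does not start at 0) and effective number of segments (right) against the summed FPKM of 19 mature B cell genes on a log axis, 1 point per mouse, coloured by group, with digits for the replicate. The 4 mice with B cell genes at 89.3 FPKM or more had 145.2 to 147.5 expected segments and the other 5 had 139.4 to 144.9.

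At equal depth, though not in the plain count, the number of segments was highest in the mice with most B cell mRNA. The 4 mice of high B cell genes, which came from all 3 groups, had the 4 highest such numbers (145.2 to 147.5 against 139.4 to 144.9 in the rest), and effective numbers of 39.6 to 60.1 against 10.5 to 43.2. Ighd, the IgD gene of naive B cells, was 22.9 to 188 FPKM in these mice and at most 0.477 FPKM in the others, and Ighm was 52.1 to 325 against at most 5.07 FPKM. Because these mice were grouped by what was measured in them, the values are given with no test, and the part of follicle B cells in the number and evenness of segments was not tested.

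In the TAI group 7 of 148 members tested were lower than in control mice and 0 were higher (limma, Benjamini-Hochberg adjusted p under 0.05, 1 member having failed the filter of 1 FPKM in 3 mice). Over all 13056 genes tested, 26.1% were called lower and 8.81% higher. At an unadjusted limma p under 0.05, 13 members were lower and 0 higher. The share over all genes was not worked out at that threshold. It cannot be below the 26.1% lower and 8.81% higher that were called after adjustment. Limma voom on the recovered reads called 6 members lower and 0 higher, beside 3306 and 1164 of all genes. The median log2 fold change was -0.29 over the members and -0.23 over all genes. With the replicate number as a block over all 9 mice, 13 members were called, all lower and including the 7. That fit called 3672 of all genes lower and 1191 higher. The labels state no such pairing. It was checked only in these same values, by correlations between same-numbered control and TAI mice (0.050, 0.121 and 0.259 over the members). The added calls are therefore no separate evidence. Without TAI 1 the fit with no block called 1 member, and without control 2 it called 4. It called 3 without control 3 (1 higher, 2 lower) and 11 without control 1. All genes called lower numbered 1643, 1956, 2081 and 3695 in the same order, and 864 were called higher without control 3. Without the 4 mice of high B cell genes, the median log2 fold change was 0.22 over the members and -0.23 over all genes. That refit compares with control 2 alone, the most uneven library, so it does not separate the part of the B cell genes from that of this 1 mouse. Under library medians set equal the calls were 0 higher and 5 lower, beside 2159 and 1823 of all genes. Under voom with TMM library sizes 1 was higher (Ighv3-6) and 5 lower, beside 1928 and 1991 of all genes.

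Ighv1-5 was the clearest of the 7. It measured 41.7, 41.7 and 19.3 FPKM in the control mice, 1.63, 9.79 and 3.47 in the TAI mice, and 2.25, 4.47 and 5.13 in the TAI/IVIg mice, so neither irradiated group overlapped control. Its log2 fold change, on the log2(FPKM + 1) scale, was -2.73 ± 0.51 (SE) in TAI against control (limma adjusted p = 0.00503) and, without the 4 mice of high B cell genes, missed the threshold with fewer mice and a fold change no smaller (limma adjusted p = 0.0984). Ighv1-82, another segment of the large Ighv1 family, fell from 25.3, 34.9 and 23.2 FPKM to 3.63, 9.39 and 6.67 FPKM (-1.98 ± 0.48, limma adjusted p = 0.0136), and its TAI/IVIg values of 5.04, 18.4 and 20.5 FPKM overlapped TAI but not control. Ighv14-2 went from 6.23, 19.3 and 14.6 FPKM to 2.16, 2.27 and 2.19 FPKM (limma log2 fold change -2.04, adjusted p = 0.0151). Igkv19-93 went from 12.7, 22.6 and 29.8 FPKM to 3.38, 6.43 and 8.15 FPKM (-1.69, limma adjusted p = 0.0236).

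The rare lambda segment Iglv3, which encodes a chain unlike those of Iglv1 and Iglv2 (59.4% identity to Iglv1 over the exon), also fell after TAI. It was 7.10, 19.8 and 30.8 FPKM in the control mice and 3.83, 3.71 and 4.75 in the TAI mice (-1.78, limma adjusted p = 0.0281). That call was lost without any 1 of control 2, control 3, TAI 1, TAI 2 or TAI 3, the adjusted p then reaching 0.0941, and those of Ighv14-2 and Igkv19-93 were lost in 3 such fits each. Igkv4-74 (2.42 ± 0.317 against 0.402 ± 0.245 FPKM) and Ighv1-69 (9.83 ± 2.66 against 3.84 ± 2.49 FPKM, SD, n = 3) completed the 7, each with a limma log2 fold change of -1.30. Among the members with the smallest p in the upward direction none passed. They were Ighv3-6 (0.64 ± 0.32, limma adjusted p = 0.146), Ighv1-58 (1.59), Ighv1-85 (0.75), Igkv4-91 (0.92) and Igkv6-20 (1.25), and the highest values of Ighv1-58 (22.7 FPKM in TAI 2), Igkv4-91 (22.1 FPKM in TAI 2) and Igkv6-20 (27.5 FPKM in TAI 1) each belonged to 1 mouse.

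**Figure D4:**
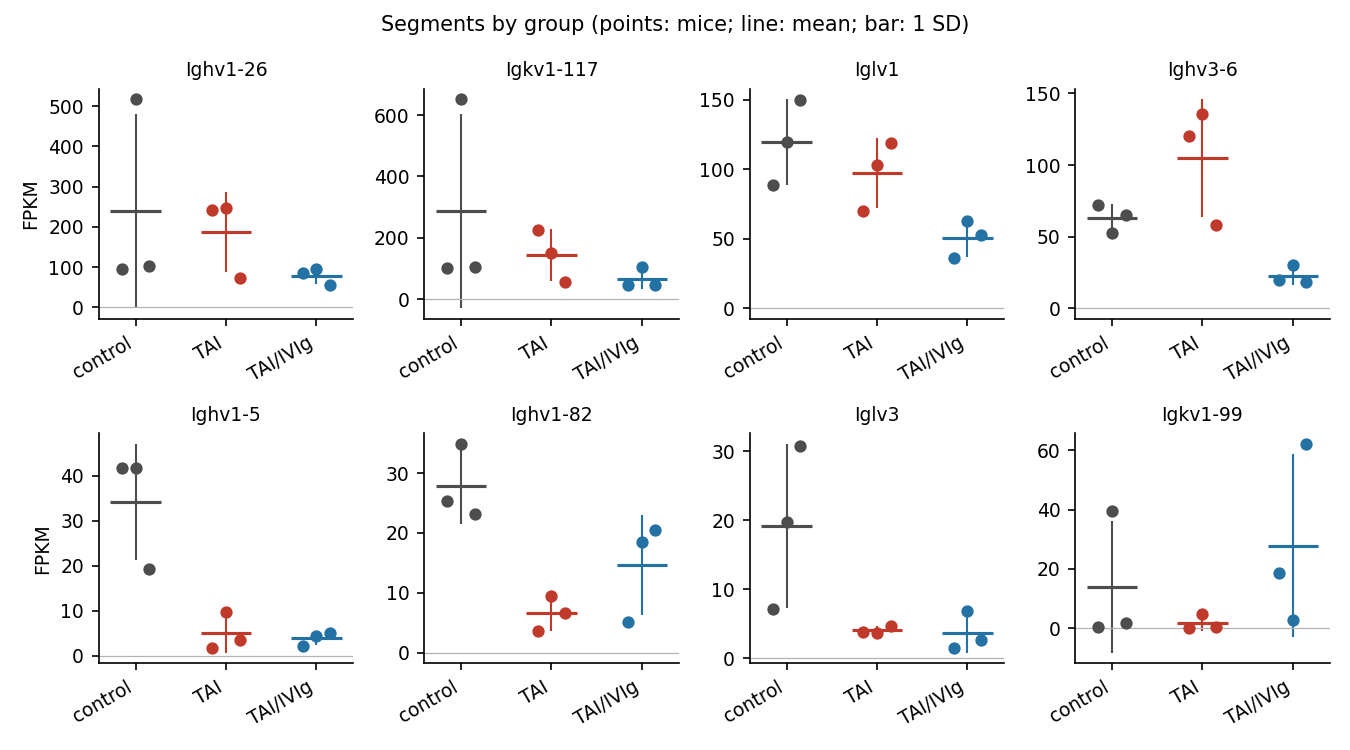
FPKM of 8 named segments by group, with points for mice, a horizontal line for the mean and a vertical bar for 1 SD. Ighv1-5 was 19.3 to 41.7 FPKM in control mice and at most 9.79 in both irradiated groups, Ighv3-6 was lowest in the TAI/IVIg mice at 18.6 to 30.1 FPKM, and the means of Ighv1-26 and Igkv1-117 in control mice rest on control 2.

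In the TAI/IVIg group 24 of 148 members were lower than in control mice and 0 were higher (limma adjusted p under 0.05), beside 37.4% of all genes tested called lower and 9.06% higher. At an unadjusted limma p under 0.05, 31 members were lower and 0 higher. The share over all genes was not worked out at that threshold. It cannot be below the 37.4% lower and 9.06% higher that were called after adjustment. Limma voom on recovered reads called 21 members lower and 0 higher, beside 4923 and 1180 of all genes. The median log2 fold change was -0.65 over the members and -0.39 over all genes, and 95 of the 148 lay below the median of all genes. The 24 were 11 Ighv, 11 Igkv and 2 Iglv members, with limma log2 fold changes from -1.12 to -2.80. Under library medians set equal there were 1 higher (Igkv4-61) and 9 lower, all 9 among the 24, beside 2880 and 1894 of all genes. Quantile normalization gave 0 higher and 9 lower, beside 2407 and 2253 of all genes. Voom with TMM library sizes gave 1 higher (Igkv4-61 again) and 8 lower, beside 2315 and 2514. Without TAI/IVIg 3 the count was 9, without control 3 it was 12 (1 higher, 11 lower), and without TAI/IVIg 1 it was 15 (3 higher, 12 lower). Without control 1 it was 16, and without TAI/IVIg 2, the mouse of high B cell genes, it was 39. All genes called lower numbered 3585, 3584, 4135, 4913 and 4989 in the same order. Those called higher numbered 940 without control 3 and 1148 without TAI/IVIg 1. Without the 4 mice of high B cell genes, which leaves control 2 as the only control mouse, the median log2 fold change was -0.58 over the members. Over all genes it was -0.44.

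Iglv1, the segment of most lambda chains, had the third highest mean of all members and was among the 24. It measured 88.6, 120 and 150 FPKM in the control mice, 70.0, 103 and 119 in the TAI mice, and 36.1, 62.6 and 53.1 in the TAI/IVIg mice, which overlapped neither other group. Its log2 fold change was -1.23 ± 0.28 (SE, limma adjusted p = 0.00747) against control. Iglv2, its near relative, averaged 17.1, 11.5 and 15.3 FPKM in control, TAI and TAI/IVIg mice. Ighv1-39 was 55.9, 17.7 and 22.9 FPKM in the control mice and 3.80, 7.38 and 4.42 in the TAI/IVIg mice (-2.29 ± 0.52, limma adjusted p = 0.00761). Igkv4-59 was 21.6, 22.4 and 35.9 FPKM against 7.40, 16.5 and 8.26 (-1.28 ± 0.30, limma adjusted p = 0.00896), and 74.3% of its 50-base windows occur in other V transcripts. Ighv1-5 had the largest change, with -2.80 ± 0.51 (limma adjusted p = 0.0029). The calls of Ighv1-5, Ighv3-6, Iglv1, Ighv1-39 and Igkv4-59 held when any 1 mouse was left out. Without the 4 mice of high B cell genes those of Ighv1-5 (-3.26) and Ighv1-39 (-1.88) were lost, with limma adjusted p of 0.0587 and 0.133.

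The direct comparison of TAI/IVIg with TAI called 0 of 148 members in either direction with limma, as it called 0% of all genes higher and 0% lower. Limma voom also called 0. At an unadjusted p under 0.05, 18 members were lower and 2 higher, beside 11.2% and 1.64% of all genes. The TAI/IVIg values did not overlap the TAI values in 11 members that were lower and 1 that was higher, beside 16.1% and 3.09% of all genes, so neither count stood above the background. The median log2 fold change was -0.41 over the members and -0.13 over all genes.

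Ighv3-6 showed the smallest p of all members in this comparison. It measured 72.2, 52.5 and 64.9 FPKM in the control mice, 120, 136 and 58.1 in the TAI mice, and 19.5, 30.1 and 18.6 in the TAI/IVIg mice. Every TAI/IVIg mouse lay below every mouse of the other groups. The log2 fold change was -2.10 ± 0.32 (SE) against TAI, with an unadjusted p of 0.000103 in limma and an adjusted p of 0.353, and -1.46 ± 0.32 against control, which passed (limma adjusted p = 0.00634) but not under voom with TMM library sizes (-1.03). Its difference between TAI and control, 0.64 as given above, passed under that scaling (0.94), without TAI 3 (1.02) and without the 4 mice of high B cell genes (1.26, limma adjusted p = 0.0403). Ighv1-39 (-1.99), Igkv4-57-1 (-2.06), Iglv1 (-0.93) and Igkv5-43 (-1.33) followed, each with a limma adjusted p of 0.353, and all but Igkv5-43 had no overlap between TAI/IVIg and TAI. Upward, Ighv1-74 (1.02, 2.66, 1.92 and 1.56 FPKM in TAI against 4.44, 7.21 and 4.08), Igkv3-7 (1.24), Igkv1-99 (3.06 ± 1.36), Igkv2-112 (1.23) and Ighv1-82 (0.93) had the smallest p, and none passed. Against control, the upward members of smallest p were Igkv4-61 (1.47), Igkv2-112 (0.96), Ighv3-4 (1.00), Ighv9-2 (1.42) and Igkv1-99 (1.60), none past the threshold (limma adjusted p from 0.109 to 0.349).

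**Figure D5:**
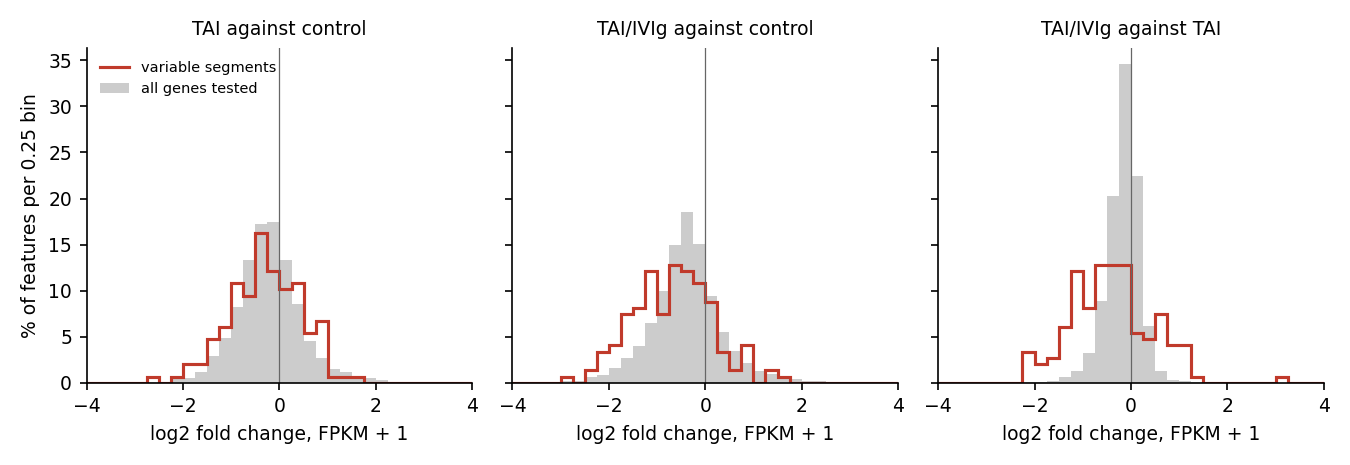
Distribution of limma log2 fold changes, on the log2(FPKM + 1) scale in bins of 0.25, for the 148 members tested (red line) and all 13056 genes tested (grey bars), as a percent of each set, in the 3 comparisons. The members spread wider than all genes in each panel, and their medians were -0.29, -0.65 and -0.41 against -0.23, -0.39 and -0.13.

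Segments typical of B-1 cells, the innate-like B cells whose antibodies often use Ighv11-2, Ighv12-3, Igkv14-126 or Igkv4-91, were uneven. All but Igkv4-91, whose mean of 7.91 FPKM was near the median of 7.29 over the members, were also low. Ighv11-2 was 13.1, 0.368 and 0.376 FPKM in the control mice, 0.253, 0.266 and 0 in the TAI mice, and 3.50, 0 and 2.85 in the TAI/IVIg mice. Igkv14-126 was highest in control 3 (4.36 FPKM) and TAI 3 (5.66 FPKM) and at most 1.15 FPKM elsewhere. Igkv4-91 was 22.1 FPKM in TAI 2 and 2.33 to 11.8 in the others, and Ighv12-3 stayed below the membership limit, at no more than 0.818 FPKM. The 3 tested segments did not pass in any comparison (limma adjusted p from 0.249 to 0.859).

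Against control, limma called 26.1% of all genes tested lower and 8.81% higher in TAI mice, and 37.4% and 9.06% in TAI/IVIg mice. Under the other scalings 1823 to 2284 and 1894 to 2514 genes were called lower. Of 17 tested plasma cell genes, 7 were lower and 1 higher in TAI mice, and 9 lower and 1 higher in TAI/IVIg mice. These calls were against control at a limma adjusted p under 0.05, with 6 to 7 and 7 to 8 lower under the other scalings. Among the lower ones were Creld2 (-2.53, 126, 170 and 101 FPKM in control against 20.3, 24.1 and 20.5 in TAI), Sec11c (-1.38) and Ssr4 (-1.11), which serve protein folding and secretion in the endoplasmic reticulum and are also used by other secretory cells. Derl3, Fkbp11, Txndc5 and Ly6d were the other lower ones in TAI mice. Prdm1, the plasma cell factor that is also made by villus epithelium, was the higher one (1.58 in TAI against control). Sdc1 (-0.15), Mzb1 (-0.61), Irf4 (-0.88) and Xbp1 (0.11), also in the list, did not pass in TAI mice. In TAI/IVIg mice Sdc1 was lower (-0.82, limma adjusted p = 0.00225), a call kept under 1 of the 3 other scalings, and Mzb1, Irf4 and Xbp1 did not pass. Of 18 tested mature B cell genes 0 passed in any comparison with limma or under the other 3 scalings, and their sum ran from 7.71 to 622 FPKM between mice.

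Signals that draw and keep plasma cells in the gut moved in opposite directions. Ccl25 and Ccl28, epithelial chemokines that recruit IgA cells, were lower in TAI (-1.47 and -1.43) and in TAI/IVIg mice (-1.14 and -1.40), with limma adjusted p from 0.00202 to 0.00581. Tnfsf13 and Tnfsf13b, which encode the survival factors APRIL and BAFF, were higher in TAI (0.70 and 0.81) and in TAI/IVIg mice (1.15 and 0.83), with limma adjusted p from 0.00321 to 0.0338. Each call held under all 3 other scalings except that of Ccl25 in TAI/IVIg mice, which held under 2. Ccl25 was 89.5, 108 and 75.3 FPKM in control, 27.7, 32.8 and 35.6 in TAI, and 29.2, 48.9 and 45.8 in TAI/IVIg mice. Tnfsf13b was 0.659 to 1.22 FPKM in control mice and 1.87 to 2.74 in the irradiated mice, so neither gene overlapped control. Of the 10 tested genes in this list the other 6 did not pass, and in TAI/IVIg against TAI 0 did. Beside these calls and those below, 26.1% of all genes were lower and 8.81% higher in TAI mice against control. In TAI/IVIg mice the shares were 37.4% and 9.06%. Pigr, which carries IgA across the epithelium, had log2 fold changes of 0.55 and 1.29 against control, neither past the threshold (limma adjusted p = 0.425 and 0.0664). In TAI/IVIg mice Pigr did pass under 2 of the 3 other scalings, which gave 1.42 to 1.78, and in TAI mice under 0. Of 9 tested T cell genes 0 passed in TAI and 1, Cd8b1 (-1.21, limma adjusted p = 0.0434), was lower in TAI/IVIg mice against control, a call lost under all 3 other scalings. Of 12 epithelial genes 4 were higher and 2 lower in TAI mice, and 6 higher and 3 lower in TAI/IVIg mice. Under the other scalings 3 to 5 and 3 to 7 were higher, beside 1928 to 2159 and 2315 to 2880 of all genes. The epithelial genes summed to 13761 to 19836 FPKM in control mice and 23063 to 35211 in the irradiated mice. Most of that sum was Fabp2, a fatty acid binding protein gene of enterocytes, at 6932 to 11125 FPKM in control mice and 13342 to 26628 in the irradiated mice, whereas Krt8 and Krt19 were lower (1 to 2 of the list under the other scalings in TAI) and Vil1 and Cdh1 did not pass. Since FPKM are shares of a library, the part of such abundant transcripts in the lower V total was not tested.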

How the data were processed

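Jejunal RNA of 9 mice was sequenced, 3 per group as titled in the labels. Per the submitters' processing notes, reads were trimmed with Trimmomatic, aligned with STAR to mm10 (GRCm38), counted with featureCounts and tested with DESeq2. Here the deposited FPKM values per gene, made by the authors, were used, and tool versions are not given in the sources used here. Ensembl identifiers were matched to GENCODE M21 and symbol tables (31146 of 31685 with a symbol). With GENCODE exon lengths, 96.6% of genes gave whole reads in every mouse (tolerance 0.01 of a read), which yielded library totals and reads per segment.

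The members, the gene lists and the tests were chosen with earlier results of these data known. Log2(FPKM + 1) of genes with at least 1 FPKM in 3 mice was fitted with limma 3.58.1 (trend, all 9 mice, group means, Benjamini-Hochberg adjustment over 13056 genes), and the code was tested on simulated data. Sums, numbers, shares and effective numbers were compared with two-sided exact permutation tests (scipy 1.17.1). Tested alternatives included other scalings, filters, pseudocounts, voom on recovered reads, a replicate block and leaving out each mouse.

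Same-numbered control and TAI mice deviated together (r = 0.271, 0.241 and 0.308 over genes), although the labels do not say what a number marks. For TAI/IVIg the correlations were 0.185, -0.136 and -0.296 with control and 0.201, 0.041 and -0.067 with TAI. The main limma fit and the exact permutation tests given here took all mice as unpaired. The replicate block, an alternative, used the numbers of all 9 mice, those of the TAI/IVIg group included. Nothing in the labels states how mice were housed or processed together, so p-values measure the spread between these samples. Named segments were the 10 of highest mean, the leader of each chain in each mouse, the 5 of smallest p in each direction and comparison, the B-1 segments and the 4 nearest the limit. From the other lists, genes of smallest p and all constant genes were named, and Igkv6-15, Igkv3-2 and the members that peaked in 1 mouse were named after their values were seen. Promoter motifs of the segments were not analysed here, and 1 B cell gene is not reported here and enters no list.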

Additional observations from a re-analysis of the deposited data

How the results depend on the processing

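Without a filter on low values limma called 3 variable segments in TAI against control in place of 7. In TAI/IVIg against control it called 9 in place of 24. Of all genes, that fit called 2762 and 4650 lower. TAI/IVIg against control gave 10 calls with library medians set equal, 9 with quantile normalization and 9 with voom and TMM library sizes. Treating the replicate number as a block gave 13 calls in TAI against control and changed no other count by over 1.5 times. Leaving out 1 mouse at a time gave 1 to 11 calls in TAI against control and 9 to 39 in TAI/IVIg against control. The same refits took the number detected from -6.67 to 3.33 segments (TAI against control). They took the number at equal depth from -2.55 to 0.895 (TAI against control) from -3.80 to -0.111 (TAI/IVIg against control) and from -3.08 to 0.601 (TAI/IVIg against TAI), and the number detected from -23.3 to -3.33 in TAI/IVIg against TAI. Differences in the share of the 10 highest segments ran from -5.35 to 8.51, from -6.79 to 7.08 and from -4.99 to 0.716 percentage points for TAI against control, TAI/IVIg against control and TAI/IVIg against TAI. The effective number ran from -19.9 to 4.94 (TAI against control) and from -13.3 to 11.5 (TAI/IVIg against control), with control 2 or control 3 left out at the ends, and from 2.29 to 12.3 (TAI/IVIg against TAI). The refit without the 4 mice of high B cell genes was chosen after the data were seen, with the lone control mouse assumed to vary like the others. TAI against control then gave 1 more segment detected, 1.91 more at equal depth and a difference of -12.9 points in the top share. The effective number was 19.9 higher in TAI, and Igkv1-99 in TAI/IVIg against control gave -0.20. Some alternatives hold fewer mice or test more genes, and the cause of these changes was not tested. Across alternatives, 183 of the summary values stayed close to the reported value, 15 changed further without changing sign and 21 changed sign. For single segments 563 values kept their direction and side of the threshold, 20 lost the call, 9 gained one and 1 changed sign. Segment reads of 6418 to 18526 per mouse limit the counting of rare segments.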

Other observations

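The 92 listed V segments below the limit held few reads. The 55 functional ones among them had 34 to 370 reads per mouse, and the 37 pseudogenes 3 to 75 reads, with control 3 highest in both. Functional ones with a read numbered 33, 23 and 51 in the control mice and 19, 34 and 32 in the TAI mice. They numbered 17, 35 and 14 in the TAI/IVIg mice, and these counts were not tested.

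Outside the V segments, the 5 genes whose log2 level most resembled the V total over the 9 mice were Itga2 and Ephb2 (Pearson r = 0.99 each) and Man2a1, Limk2 and Kcne3 (0.97 each). They were picked from 12903 genes as the most alike, so these values are a description, given with no p, and group differences contribute to them.

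Of 8 tested genes of follicle epithelium and stroma 1 was lower in each irradiated group against control, a call that no other scaling kept and that 1 gene passing upward in TAI replaced under all 3. Of 3 tested germinal centre and recombination genes 1 was higher in each irradiated group. Of 8 smooth muscle genes 0 in TAI and 2 in TAI/IVIg were lower (1 in TAI/IVIg under each other scaling). Of 2 erythrocyte genes 2 and 1 were lower (0 to 1 in TAI and 0 in TAI/IVIg under the other scalings). Beside these counts, 26.1% of all genes were lower and 8.81% higher in TAI, and 37.4% and 9.06% in TAI/IVIg mice.

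With 3 mice a group, differences in totals, numbers and shares could not reach a p below 0.10. FPKM express each gene as a share of the library, so a segment's level moves with every other abundant transcript. Germline alignment does not reveal clones, pairs of heavy and light chains or mutation.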
